A study of Mus musculus with 12 samples.

Results

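The genes described here make cholesterol and fatty acids. They are 30 of the 35275 genes in the deposited count table of cultured mouse cardiac fibroblasts, and were chosen by symbol from the textbook pathways. Each symbol had 1 row, and all 30 were among the 15150 genes with enough counts to be tested. By role they comprise 6 enzymes of the mevalonate steps, 11 of the squalene and sterol steps, 3 genes of sterol sensing and transfer, 5 of fatty acid synthesis and 5 of fatty acid elongation and desaturation.

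All cells carried the Smad7 fl/fl genotype, in which loxP sites flank the promoter region and the first exon of Smad7. They came from the hearts of C57BL/6 mice aged 12 weeks, were used at passage 2, and received adenovirus at 100 MOI for 48 hours. The sample titles call the control cells wild type, although the cell labels give floxed mice for every library. A Cre adenovirus deleted Smad7 in the Smad7-KO groups. The virus of the control groups expresses GFP by the labels and is called empty in the study's methods. Each of these groups was left unstimulated or received TGF-β1 at 10 ng/ml, for 2 hours by 1 label and 4 hours by another, which gave 4 conditions of 3 libraries each. No source used here says whether the libraries of a condition came from separate mice or cultures, so the p values measure the spread between libraries, which may be technical. Because the RNA was pooled over all cells of a culture, fewer cells of a type and less RNA per cell cannot be told apart.

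Cholesterol is built from acetyl-CoA through mevalonate, isoprenoids, squalene and lanosterol, and the last enzymes convert lanosterol to cholesterol. When sterols in the endoplasmic reticulum fall short, the transcription factor SREBP-2, encoded by Srebf2, is released by proteolysis in the Golgi and raises transcription of most of these enzymes, whereas INSIG-1 retains it while sterols are plentiful. Fatty acid synthesis starts from the same acetyl-CoA, which ATP citrate lyase makes from citrate, and draws on NADPH from malic enzyme among other sources.

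SREBP-2 binds promoters at sterol regulatory elements next to NF-Y and Sp1 sites, and the promoters of the members that passed a test below are shown for that reason. RefSeq promoter windows of GRCm38.p6, from 250 bases before to 50 after a start site, were matched by symbol for 23 of the 30 members, in 27 windows. Both strands were searched, and CACGTG reads the same on both. The NF-Y motif CCAAT was found in 20 of the 27 windows against 37.4% of the 32824 windows of other genes, and the Sp1 motif GGGCGG in 20 of 27 against 35.6%. The E-box CACGTG was found in 4 of 27 windows, those of Hsd17b7, Sc5d, Dhcr7 and Insig1, against 7.14%. The sterol regulatory element core TCACNCCAC was found in the Hmgcs1 window only, against 1.24% of other windows, with its first base 137 bases before the start site. A match is a stretch of letters and not evidence of binding. In the count table Hmgcs1 (ENSMUSG00000093930) lies at chr13:119690462-119708086, Dhcr7 (ENSMUSG00000058454) at chr7:143823145-143848410, Cyp51 (ENSMUSG00000001467) at chr5:4081145-4104746, Acly (ENSMUSG00000020917) at chr11:100476353-100528000 and Me1 (ENSMUSG00000032418) at chr9:86581371-86695953. Stard4 was not among the members matched. The sequences below run 5′ to 3′ on the strand of the gene and end before both the RefSeq start and the start of the gene in the count table, and capitals mark the 4 motifs on either strand. Matches past the end of a printed stretch or in another window of a gene, such as CACGTG in Dhcr7, are counted above but not shown.
Hmgcs1 (chr13:119690101-119690350, plus strand): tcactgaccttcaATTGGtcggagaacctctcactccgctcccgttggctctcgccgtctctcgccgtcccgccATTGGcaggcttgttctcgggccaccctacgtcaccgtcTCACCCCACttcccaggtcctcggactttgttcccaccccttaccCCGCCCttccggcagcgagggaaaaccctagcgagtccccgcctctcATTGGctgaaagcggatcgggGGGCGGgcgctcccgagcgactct
Dhcr7 (chr7:143822917-143823144, plus strand): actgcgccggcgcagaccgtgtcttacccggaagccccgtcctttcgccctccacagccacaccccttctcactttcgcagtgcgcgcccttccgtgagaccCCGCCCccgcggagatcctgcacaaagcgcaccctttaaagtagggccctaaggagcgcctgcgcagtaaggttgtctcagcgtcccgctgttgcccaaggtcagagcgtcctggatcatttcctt
Cyp51 (chr5:4104747-4104947, minus strand): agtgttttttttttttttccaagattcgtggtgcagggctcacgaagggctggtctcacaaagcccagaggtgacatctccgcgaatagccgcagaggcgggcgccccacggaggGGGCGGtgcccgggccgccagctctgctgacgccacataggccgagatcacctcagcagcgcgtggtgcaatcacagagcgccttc
Acly (chr11:100528001-100528250, minus strand): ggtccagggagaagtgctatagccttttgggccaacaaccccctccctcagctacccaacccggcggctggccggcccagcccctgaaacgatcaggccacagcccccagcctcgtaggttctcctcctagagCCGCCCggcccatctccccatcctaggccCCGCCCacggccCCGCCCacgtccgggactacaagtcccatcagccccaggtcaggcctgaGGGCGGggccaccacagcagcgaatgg
Me1 (chr9:86695954-86696164, minus strand): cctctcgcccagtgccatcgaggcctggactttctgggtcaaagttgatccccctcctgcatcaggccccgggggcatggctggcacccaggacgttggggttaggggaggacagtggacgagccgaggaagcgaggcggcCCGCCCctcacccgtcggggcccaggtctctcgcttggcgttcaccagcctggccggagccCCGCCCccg

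Libraries held 19056916 to 25371321 counts (median 22660845). Smad7 itself measured 74.4 ± 2.94 CPM (CPM scales a gene's count by the depth of its library, here with TMM factors, and values are mean ± SD with n = 3) in control cells and 29.4 ± 1.48 in Smad7-KO cells, and 146 ± 4.24 and 76.8 ± 5.89 after TGF-β1, so transcripts remained in Smad7-KO libraries. The labelled cell type was checked by marker genes. The 8 fibroblast markers summed to 7127 to 11290 CPM per library, and all were detected in every group, but the 10 macrophage markers summed to 16420 to 25990 CPM in control, 16350 to 19010 in TGF-β1 control, 23260 to 25560 in Smad7-KO libraries without TGF-β1 and 22590 to 25510 with it. Of these macrophage markers, 6 rose in unstimulated Smad7-KO cells and 5 in TGF-β1 Smad7-KO cells, and 2 of the 8 fibroblast markers rose in each comparison. Over all genes tested, 12.1% rose and 13.7% fell in Smad7-KO cells without TGF-β1, and 5.72% and 7.23% with it. The 10 endothelial markers summed to 278 to 332 and 284 to 327 CPM in control libraries against 49.0 to 58.6 and 46.3 to 46.7 in Smad7-KO libraries. In both comparisons 6 of them fell, among them Emcn, Pecam1 and Cdh5, which made up most of the sum, while Vwf rose (from 14.8 ± 2.97 to 30.4 ± 4.00 CPM, and from 17.0 ± 2.32 to 25.8 ± 1.47 with TGF-β1) and Kdr was not called. The 7 adipocyte markers, of interest because adipocytes make fat, summed to 25.5 to 57.6, 18.3 to 21.0, 58.4 to 66.9 and 21.7 to 31.1 CPM in the 4 conditions in the same order, with Adipoq, Lep and Cfd at 3 counts or fewer in every library. Fabp4 (29.5, 14.4, 48.8 and 21.6 CPM in the means of the 4 conditions) and Pparg (10.6, 4.54, 12.7 and 3.99 CPM) carried nearly all of that sum. The part of other cell types in the values of the members was not tested. The 6 cardiomyocyte markers reached 71.1 CPM and the 6 smooth muscle and pericyte markers 21.7 CPM in the highest library. Tnnt2 carried nearly all of the cardiomyocyte sum (70.0 CPM in that library). The cardiomyocyte sums were 30.4 to 71.1, 25.2 to 29.5, 16.5 to 22.2 and 15.9 to 17.7 CPM in the 4 conditions in the same order. Those of smooth muscle and pericytes were 12.1 to 17.0, 17.3 to 21.7, 5.15 to 8.24 and 8.54 to 11.7 CPM.

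Unstimulated control libraries 2 and 3 stood apart from the others in a way that followed gene length. Deviations were taken from the mean of the gene in the 3 libraries of the same condition. Averaged over the 30 members, their size was 0.336 log2 units in control library 2 and 0.302 in control library 3, and 0.0698 to 0.149 in the other 10. In control library 2 the shorter members were high and the longer members low (Spearman rho of deviation and length -0.543 across the 30 members, and -0.539 across all genes tested). The order was the opposite in control library 3 (rho 0.693 and 0.588). TGF-β1 control libraries 1 and 2 had the same pair of slopes (rho 0.699 and -0.651) at smaller deviations. Slopes were also opposed in TGF-β1 Smad7-KO libraries 2 and 3 (rho 0.499 and -0.521 across the members, 0.349 and -0.427 across all genes), again at smaller deviations. Genes of a library share its depth and handling, so these coefficients describe the libraries and carry no test. Fasn, at 9587 bases the longest member, measured 93.9, 44.1 and 137 CPM in control libraries 1 to 3, and Pmvk, at 1194 bases the shortest, measured 15.5, 27.9 and 13.4. The opposite order of these members was visible in a map of deviations from the mean over all 12 libraries.

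**Figure D1:**
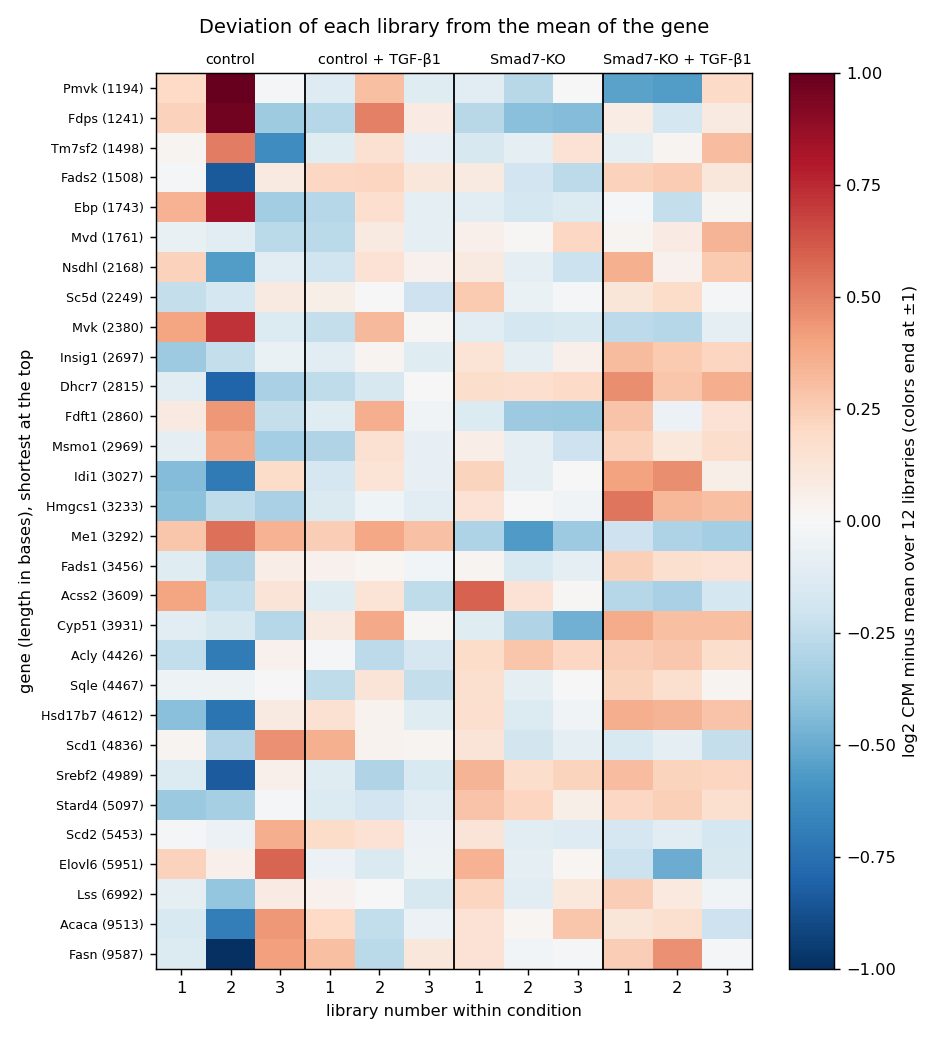
Deviation of each of the 12 libraries (columns, by condition) from the mean over those 12 libraries of each of the 30 members (rows, sorted by gene length in bases). Values are in log2 CPM, with colors ending at ±1. Control library 2 is red for many short members and blue for the longest, and control library 3 shows the opposite, whereas the other libraries differ less.

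Levels of different genes were compared per length, as deposited FPKM, which scales the count of a gene by its length and the depth of the library. The 30 members together summed to 490 ± 25.8 FPKM (SD, n = 3) in control, 506 ± 25.9 in TGF-β1 control, 475 ± 30.9 in Smad7-KO cells and, after TGF-β1, 516 ± 14.8 in these cells. The ranges overlapped. In control cells Fdps, which makes farnesyl diphosphate, had the highest mean (52.8 ± 20.5 FPKM), followed by Me1, cytosolic malic enzyme (45.7 ± 2.04), Fads1, a desaturase of polyunsaturated fatty acids (44.2 ± 8.27), Scd2, a stearoyl-CoA desaturase (36.0 ± 7.96), and Fads2, which acts with Fads1 (33.3 ± 12.1). The spread of Fdps spanned those of its neighbours in that order. The lowest were the elongase Elovl6 (1.79 ± 0.441 FPKM), Acss2, which makes acetyl-CoA from acetate (2.23 ± 0.592), and Lss, lanosterol synthase (2.40 ± 0.524), whose means lay within 1 SD of the next. In Smad7-KO cells Fads1 came first (45.8 ± 2.93 FPKM) and Acly, ATP citrate lyase, next (42.6 ± 1.38), while Me1 followed several others (26.6 ± 2.46). Elovl6 remained lowest in all 4 conditions.

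To ask how loss of Smad7 bears on lipid synthesis genes, Smad7-KO cells were compared with control cells without and with TGF-β1. Me1, which supplies NADPH for fatty acid synthesis, fell in both comparisons, to 0.571 of the control level without TGF-β1 and 0.662 with it. Hmgcs1, the synthase that makes HMG-CoA at the head of the mevalonate steps, rose 1.29-fold and 1.41-fold, and Dhcr7, which forms cholesterol from 7-dehydrocholesterol, rose 1.47-fold and 1.42-fold. Stard4, a sterol transfer protein, and Acly rose in unstimulated cells only by the threshold, and the difference between the comparisons was not significant for either (interaction below). The remaining members did not pass the test.

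Without TGF-β1, 4 of the 30 members were higher and 1 lower at an adjusted p of 0.05 or less (edgeR's quasi-likelihood test, Benjamini-Hochberg over all genes tested), where 12.1% of all genes tested were called higher and 13.7% lower. With TGF-β1, 2 were higher and 1 lower, against 5.72% and 7.23% of all genes. The shares of members called were near or below those of the whole table in each direction. The libraries of both groups did not overlap for 7 members without TGF-β1 (6 higher, 1 lower) and for 12 with it (8 higher, 4 lower), against 41.3% and 44.9% of all genes. The median log2 fold change of the members was 0.07 and 0.15, against -0.02 and -0.02 over all genes. At an unadjusted p under 0.05 there were 10 and 7 members.

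**Figure D2:**
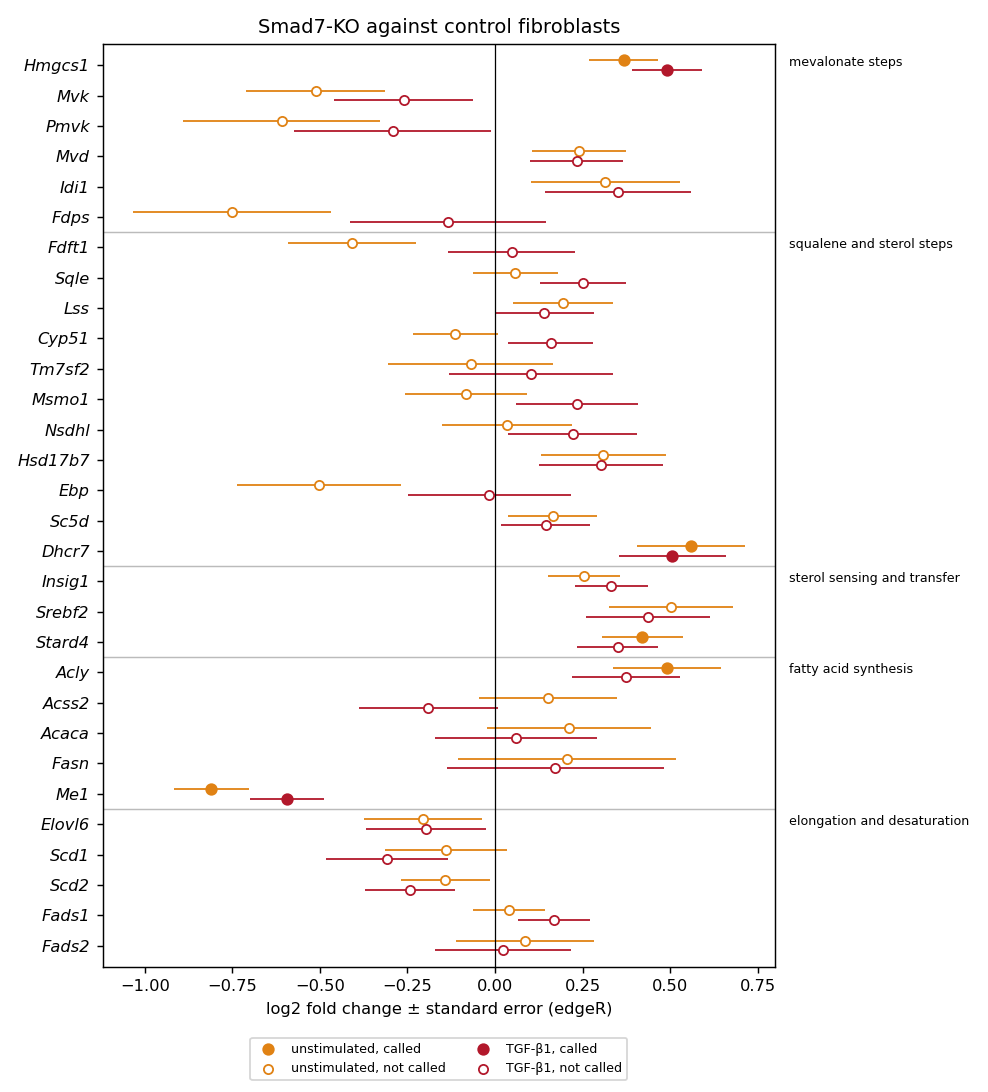
Log2 fold change ± standard error of the 30 members in Smad7-KO against control cells (horizontal axis), without TGF-β1 (orange) and with it (red), grouped by role, with filled points where the adjusted p was 0.05 or less. Me1 lies farthest to the left in both comparisons, and Hmgcs1 and Dhcr7 are filled to the right of 0 in both.

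Of the 6 members of the mevalonate steps, Hmgcs1 was called in both comparisons. It measured 49.8, 55.5 and 52.9 CPM in control libraries 1 to 3 and 73.3, 66.1 and 64.7 in Smad7-KO libraries (log2 fold change 0.37 ± 0.0992 (SE), edgeR adjusted p = 0.0234). With TGF-β1 it measured 60.1, 64.4 and 61.5 CPM in control and 96.2, 83.6 and 81.5 in Smad7-KO libraries (log2 fold change 0.49 ± 0.0990 (SE), edgeR adjusted p = 0.00813). The groups did not overlap in either comparison, and all 3 TGF-β1 Smad7-KO libraries were the highest of the 12. Among the 23 members with a promoter window, only that of Hmgcs1 held the TCACNCCAC motif shown above, and a link to its level was not tested. Fdps measured 60.7, 101 and 40.4 CPM in control and 42.7, 38.7 and 38.4 in Smad7-KO libraries (log2 fold change -0.75, 95% interval -1.30 to -0.20, adjusted p = 0.0662 by edgeR). Control library 2 was far above the others, and control library 3 lay within the Smad7-KO range, so the groups overlapped. Pmvk, phosphomevalonate kinase, measured 15.5, 27.9 and 13.4 CPM in control and 12.5, 11.1 and 13.5 in Smad7-KO libraries (log2 fold change -0.61, 95% interval -1.16 to -0.058, adjusted p = 0.117 by edgeR), with control library 2 again the highest. The 95% intervals use a normal quantile and are narrower than the edgeR test implies. That of Pmvk left out 0, although its unadjusted p by edgeR was 0.0522. Mvk, mevalonate kinase, had a log2 fold change of -0.51 ± 0.198 without TGF-β1 and -0.26 ± 0.198 with it. Mvd, the decarboxylase that makes isopentenyl diphosphate, and Idi1, its isomerase, had values of 0.24 ± 0.134 and 0.31 ± 0.212 without and 0.23 ± 0.133 and 0.35 ± 0.209 with TGF-β1. None of these 5 was called, and 3 of the 6 members had a positive log2 fold change in each comparison.

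Among the 11 squalene and sterol enzymes, Dhcr7 was called in both comparisons. It measured 23.1, 14.3 and 19.9 CPM in control and 28.1, 28.0 and 28.4 in Smad7-KO libraries (log2 fold change 0.56 ± 0.153 (SE), edgeR adjusted p = 0.0248). With TGF-β1 the values were 20.9, 22.3 and 24.9 in control and 34.4, 30.2 and 32.0 in Smad7-KO libraries (log2 fold change 0.51 ± 0.152 (SE), edgeR adjusted p = 0.0494). Every Smad7-KO library lay above every control library, and without TGF-β1 the control libraries spread more widely than the Smad7-KO libraries. The other 10 enzymes had log2 fold changes from -0.50 (Ebp, a sterol isomerase) to 0.31 (Hsd17b7, a sterol ketone reductase) without TGF-β1 and from -0.017 (Ebp) to 0.30 (Hsd17b7) with it. Positive values were counted in 6 of 11 enzymes without TGF-β1 and in 10 of 11 with it, and Hsd17b7 also had no overlap with TGF-β1 (24.8, 22.9 and 20.6 against 28.8, 28.3 and 27.2 CPM). Sqle, squalene epoxidase, had a log2 fold change of 0.058 ± 0.122 without TGF-β1 and 0.25 ± 0.122 with it. Lss had values of 0.19 and 0.14, Msmo1, sterol methyl oxidase, -0.083 and 0.23, and Nsdhl, a sterol decarboxylating dehydrogenase, 0.034 and 0.22. Sc5d, sterol C5-desaturase, had values of 0.16 and 0.14, and Tm7sf2, a sterol C14-reductase whose gene overlaps Vps51 on the same strand, -0.070 and 0.10. Cyp51 and Fdft1 are given with TGF-β1 below.

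The 3 genes of sterol sensing and transfer had positive log2 fold changes in both comparisons and unadjusted p values under 0.05 in both. Stard4 measured 16.5, 16.9 and 21.1 CPM in control and 25.96, 24.7 and 22.3 in Smad7-KO libraries (log2 fold change 0.42 ± 0.116 (SE), edgeR adjusted p = 0.0255), and the groups did not overlap. With TGF-β1 it measured 19.4, 18.7 and 19.7 in control and 24.6, 25.2 and 23.9 in Smad7-KO libraries (log2 fold change 0.35 ± 0.116 (SE), edgeR adjusted p = 0.0688), which missed the threshold without overlap. Srebf2 measured 103, 63.8 and 117 CPM in control and 143, 128 and 132 in Smad7-KO libraries (log2 fold change 0.50 ± 0.177 (SE), edgeR adjusted p = 0.0549). After TGF-β1 the values were 104, 91.9 and 102 and 140.2, 132 and 131 (log2 fold change 0.44 ± 0.177 (SE), edgeR adjusted p = 0.129). All Smad7-KO libraries lay above all control libraries, and control library 2 was the lowest of the 12 by a wide margin. Insig1 measured 42.1, 45.8 and 51.6 and 59.6, 50.7 and 56.2 CPM without TGF-β1 (log2 fold change 0.25 ± 0.104 (SE), edgeR adjusted p = 0.0859), where control library 3 reached into the Smad7-KO range. With TGF-β1 it measured 50.02, 55.1 and 49.8 and 67.3, 64.9 and 62.8 (log2 fold change 0.33 ± 0.104 (SE), edgeR adjusted p = 0.0578) without overlap. Summed per length, the 3 genes measured 39.8 ± 9.20 FPKM in control, 43.4 ± 0.595 in TGF-β1 control, 52.7 ± 3.50 in Smad7-KO cells and, after TGF-β1, 55.0 ± 1.99 in these cells.

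Of the 5 fatty acid synthesis genes, Me1 and Acly moved in opposite directions. Me1 measured 139.9, 169 and 147 CPM in control and 92.9, 77.8 and 89.6 in Smad7-KO libraries (log2 fold change -0.81 ± 0.106 (SE), edgeR adjusted p = 0.000618). With TGF-β1 it measured 137, 151 and 141 and 99.8, 93.1 and 91.0 (log2 fold change -0.59 ± 0.106 (SE), edgeR adjusted p = 0.00427). All 6 Smad7-KO libraries lay at or under 99.8 CPM and all 6 control libraries at or above 136.8 CPM. Acly measured 135, 98.5 and 165 CPM in control and 182, 194 and 185 in Smad7-KO libraries (log2 fold change 0.49 ± 0.154 (SE), edgeR adjusted p = 0.0401), and 158, 134 and 142 and 189.5, 193 and 181 with TGF-β1 (log2 fold change 0.37 ± 0.154 (SE), edgeR adjusted p = 0.134). The Acly libraries did not overlap in either comparison, although control library 2 lay well below the others. Acaca, acetyl-CoA carboxylase, and Fasn, fatty acid synthase, had log2 fold changes of 0.21 ± 0.233 and 0.21 ± 0.311 without TGF-β1 and 0.060 ± 0.232 and 0.17 ± 0.310 with it. Acss2 had values of 0.15 and -0.19. Its gene overlaps Ggt7 and Gss on the opposite strand, and whether reads were counted by strand is not given in the sources used here.

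None of the 5 elongation and desaturation genes was called. Elovl6, Scd1 and Scd2 had negative log2 fold changes in both comparisons (-0.21, -0.14 and -0.14 without TGF-β1 and -0.20, -0.31 and -0.24 with it). With TGF-β1 each of these 3 was lower in every Smad7-KO library than in any control library, for example Scd1 with 95.1, 76.2 and 75.8 CPM in control and 66.9, 69.8 and 63.0 in Smad7-KO libraries. Fads1 was higher without overlap, and the groups did not overlap for 44.9% of all genes in this comparison. Scd1 and Scd2 are close paralogs, so reads shared between them are uncertain. Fads1 and Fads2, desaturases of polyunsaturated fatty acids, had values of 0.039 and 0.085 without TGF-β1 and 0.17 and 0.022 with it.

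**Figure D3:**
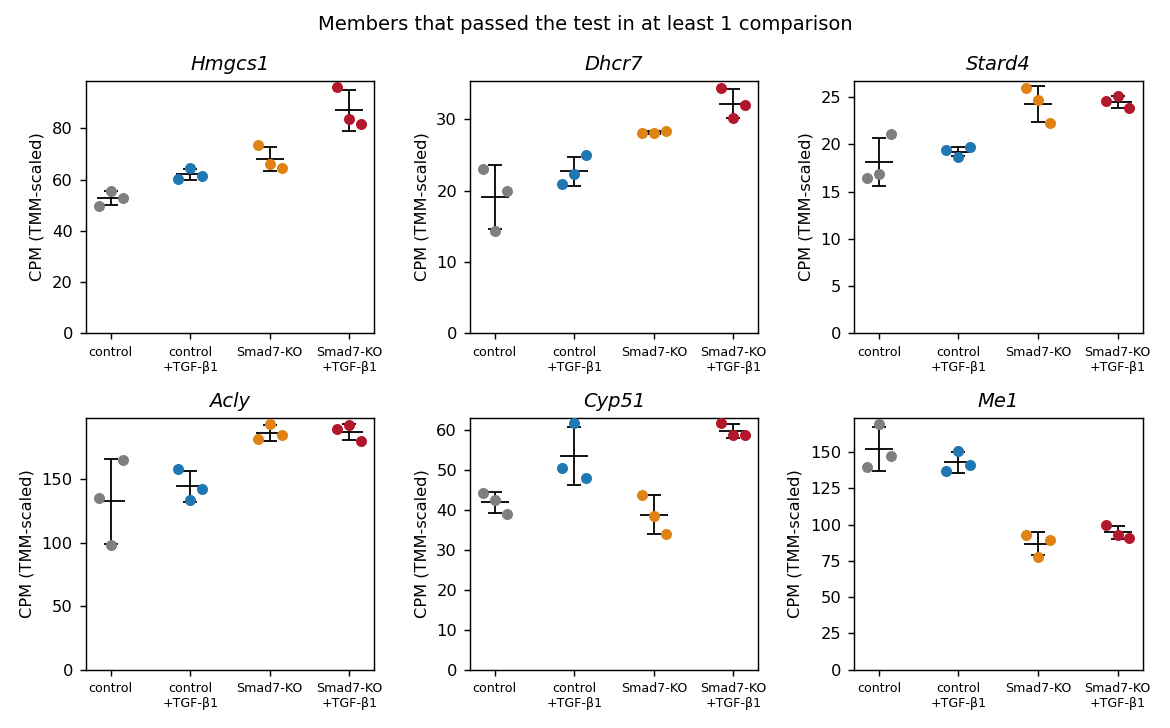
CPM (vertical axis, from 0) of the 6 members called in at least 1 comparison, in each library (points) of the 4 conditions, with the mean and SD (black). Me1 is lower in all Smad7-KO libraries, Hmgcs1, Dhcr7, Stard4 and Acly are higher, and Cyp51 is highest after TGF-β1.

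The calls rested on single libraries to different degrees. Me1 in both comparisons and Hmgcs1 with TGF-β1 were called in each of the 21 alternative analyses run. Without TGF-β1, Hmgcs1 lost its call without control library 1 (adjusted p = 0.0705 by edgeR) or Smad7-KO library 1 (0.0947), 2 (0.0621) or 3 (0.0538), and Dhcr7 without any of the 3 Smad7-KO libraries (0.0696 to 0.0747). Stard4 lost it without control library 1 (0.0733) or Smad7-KO library 1 (0.0935) or 2 (0.0809). Acly lost it without any library of its 2 groups except control library 3, and without control library 2 its log2 fold change was 0.32. Acly also lost it without TGF-β1 control library 3 (0.0608) or TGF-β1 Smad7-KO library 1 (0.0603) or 2 (0.0584), which enter through the shared estimate of the spread. Dhcr7 with TGF-β1 lost its call without any of the 6 libraries compared (0.0777 to 0.163) or any unstimulated Smad7-KO library (0.0762 to 0.0776). In edgeR or DESeq2 fits of only the libraries compared, Me1 was the 1 member called without TGF-β1, whereas 8 members were called with it. The shares of all genes called were 4.54% (edgeR) and 9.82% (DESeq2) without TGF-β1 and 30.8% and 18.7% with it. These edgeR shares are over 14524 and 14481 genes, and the DESeq2 shares over 23232 and 24734 genes, without the filter on low counts. With TGF-β1, edgeR called 4453 genes and DESeq2 4623, so the shares of the 2 tools are not on 1 scale.

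Leaving out unstimulated control library 3 raised the number of members called without TGF-β1 from 5 to 15, while the share of all genes called rose from 25.8% to 51.5%, so the members followed the whole table. The 9 higher members were then Hmgcs1, Idi1 (0.61), Hsd17b7 (0.56), Dhcr7, Insig1, Srebf2 (0.69), Stard4, Acly and Acaca (0.55), and the 6 lower were Mvk (-0.71), Pmvk (-0.80), Fdps (-1.01), Fdft1 (-0.56), Ebp (-0.75) and Me1, with log2 fold changes in parentheses. The count was 4 without control library 2, 2 without control library 1 or Smad7-KO library 3, and 1 without Smad7-KO library 1 or 2, with 19.4%, 12.9%, 9.9%, 10.6% and 9.9% of all genes called in that order. With TGF-β1, 7 members were called without unstimulated control library 2 or 3, in place of 3, where 28.8% and 22.6% of all genes were called, in place of 13%.

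Because the libraries differed along gene length, the comparison was repeated after each library's trend on length had been removed. The log2 fold changes of all genes with the lengths of the 10 shortest, 10 middle and 10 longest members had medians of -0.25, 0.07 and 0.32 without TGF-β1, and those of the members were -0.02, 0.09 and 0.20. With the trend removed, 10 members were called in each comparison, against 13.8% of all genes called higher and 15.6% lower without TGF-β1 and 11.4% and 11.8% with it. Without TGF-β1, Hmgcs1 (0.34), Mvd (0.52), Dhcr7 (0.60), Insig1 (0.32) and Acly (0.31) were higher. Lower were Me1 (-0.85), Acaca (-0.30), Elovl6 (-0.56), Scd1 (-0.37) and Scd2 (-0.45). With TGF-β1 the higher members were Hmgcs1 (0.50), Mvd (0.41), Dhcr7 (0.56), Insig1 (0.39), Srebf2 (0.30) and Acly (0.28), and the lower members Me1 (-0.59), Acaca (-0.28), Scd1 (-0.43) and Scd2 (-0.41). Stard4 was then no longer called without TGF-β1 (0.14, adjusted p = 0.293 by edgeR). The sign changed for 6 members without TGF-β1 and for 5 with it, among them Acaca and Fasn (-0.26 and -0.16). The median of the members was -0.04 without TGF-β1 and 0.16 with it. A change in Smad7-KO cells that followed gene length cannot be told apart from a length trend of the libraries.

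**Figure D4:**
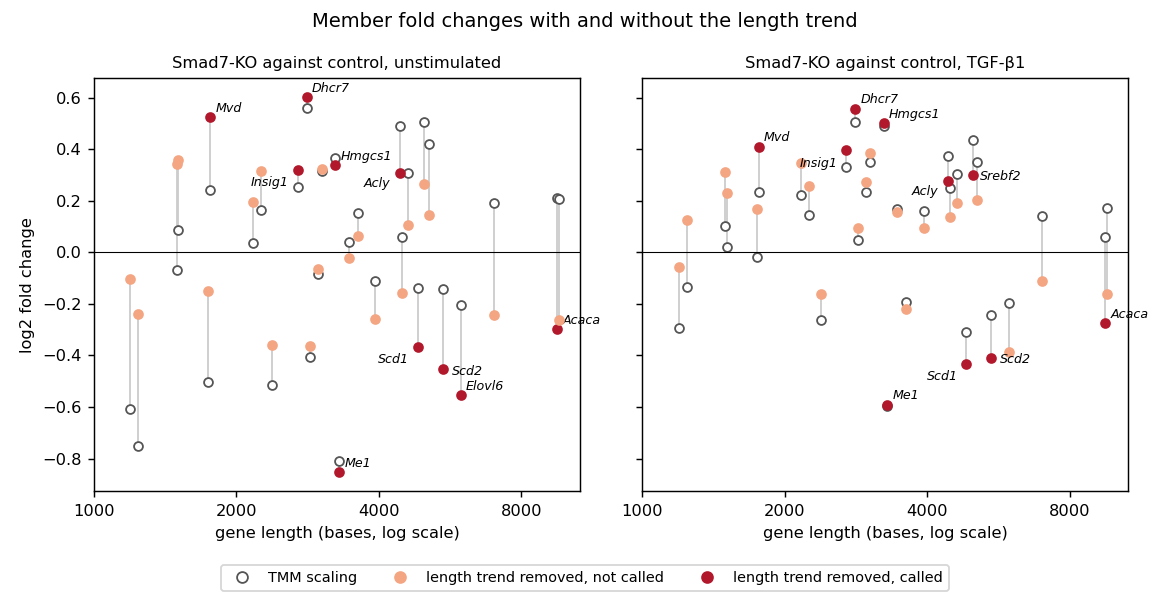
Log2 fold change of each member in Smad7-KO against control cells by gene length in bases (log scale), with TMM scaling (open) and after removal of each library's length trend (filled, dark where the adjusted p was 0.05 or less), without TGF-β1 (left) and with it (right). Removal moves the longest members down and the shortest up, and 10 members are called in each panel.

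Next, the response of these genes to TGF-β1 was compared in control and in Smad7-KO cells. In control cells no member was called, where 5.04% of all genes tested rose and 3.33% fell. In Smad7-KO cells Cyp51, lanosterol demethylase, rose 1.54-fold and Hmgcs1 rose 1.28-fold, and no member fell, against 5.33% and 4.9% of all genes. All 11 squalene and sterol enzymes had a positive log2 fold change in Smad7-KO cells, from 0.033 (Lss) to 0.62 (Cyp51), against 6 of 11 in control cells. Their median was 0.19 in Smad7-KO and 0.06 in control cells, against -0.01 and -0.03 over all genes. Only Cyp51 of these 11 was called. The interaction, given below, was positive for 7 and negative for 4 of them, with 0 at an unadjusted p under 0.05 by edgeR. Both comparisons of TGF-β1 share their unstimulated libraries with the comparisons of Smad7-KO cells above.

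Cyp51 measured 43.8, 38.6 and 34.1 CPM in unstimulated and 61.7, 58.7 and 58.7 in TGF-β1 Smad7-KO libraries (log2 fold change 0.62 ± 0.122 (SE), edgeR adjusted p = 0.00639), with no overlap, and this call was kept in each of the 21 alternative analyses run. In control cells it measured 44.3, 42.6 and 39.1 CPM unstimulated and 50.6, 61.7 and 48.1 with TGF-β1, also without overlap (log2 fold change 0.35 ± 0.122 (SE), edgeR adjusted p = 0.117). Its response did not differ significantly between Smad7-KO and control cells (interaction 0.27, 95% interval -0.067 to 0.61, adjusted p = 0.98 by edgeR). Hmgcs1, whose values are given above, had a log2 fold change 0.36 ± 0.0989 (SE), edgeR adjusted p = 0.0407, in Smad7-KO cells and a log2 fold change 0.23 ± 0.0992 (SE), edgeR adjusted p = 0.208, in control cells. Neither set of groups overlapped, and the call in Smad7-KO cells was lost without any library except unstimulated control library 2 or 3 (0.0598 to 0.194 by edgeR). Fdft1, squalene synthase, measured 22.5, 19.1 and 19.04 CPM in unstimulated and 30.0, 23.6 and 27.3 in TGF-β1 Smad7-KO libraries (log2 fold change 0.42 ± 0.183 (SE), edgeR adjusted p = 0.22), without overlap. In control libraries it measured 26.2, 33.3 and 20.9 and 22.6, 31.6 and 24.1 CPM, which overlapped. Its gene overlaps Ctsb on the opposite strand, which had up to 277680 counts in a library.

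Other members are given as values only. Ebp measured 41.8, 58.7 and 25.8 CPM in unstimulated and 26.9, 36.9 and 30.9 in TGF-β1 control libraries (log2 fold change -0.41 ± 0.233 (SE), edgeR adjusted p = 0.365), and 30.3, 29.0 and 29.8 and 32.6, 27.7 and 33.3 in the Smad7-KO libraries. Pmvk measured 12.3, 16.6 and 12.4 CPM in TGF-β1 control libraries (log2 fold change -0.45 ± 0.280 (SE), edgeR adjusted p = 0.42) and 9.29, 9.14 and 15.4 in TGF-β1 Smad7-KO libraries. In both of these genes unstimulated control library 2 was the highest of the 12. Elovl6 measured 10.1, 8.91 and 12.9 CPM in unstimulated and 8.25, 7.77 and 8.31 in TGF-β1 control libraries (log2 fold change -0.39 ± 0.170 (SE), edgeR adjusted p = 0.219). In Smad7-KO libraries it measured 11.0, 8.03 and 8.72 and 7.42, 6.11 and 7.69 (log2 fold change -0.38 ± 0.171 (SE), edgeR adjusted p = 0.234). Every TGF-β1 library was below every unstimulated library within each genotype. Acss2 measured 11.2, 8.20 and 7.46 CPM in unstimulated and 6.06, 5.93 and 6.56 in TGF-β1 Smad7-KO libraries (log2 fold change -0.53 ± 0.198 (SE), edgeR adjusted p = 0.138), without overlap, and 9.73, 6.23 and 8.10 and 6.79, 8.14 and 6.22 in control libraries, with overlap. Insig1 and Fads1 had log2 fold changes of 0.23 ± 0.104 and 0.25 ± 0.103 in Smad7-KO and 0.15 ± 0.104 and 0.12 ± 0.103 in control cells. Srebf2, Stard4 and Acly were near 0 in Smad7-KO cells (0.00078, 0.013 and 0.0054).

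**Figure D5:**
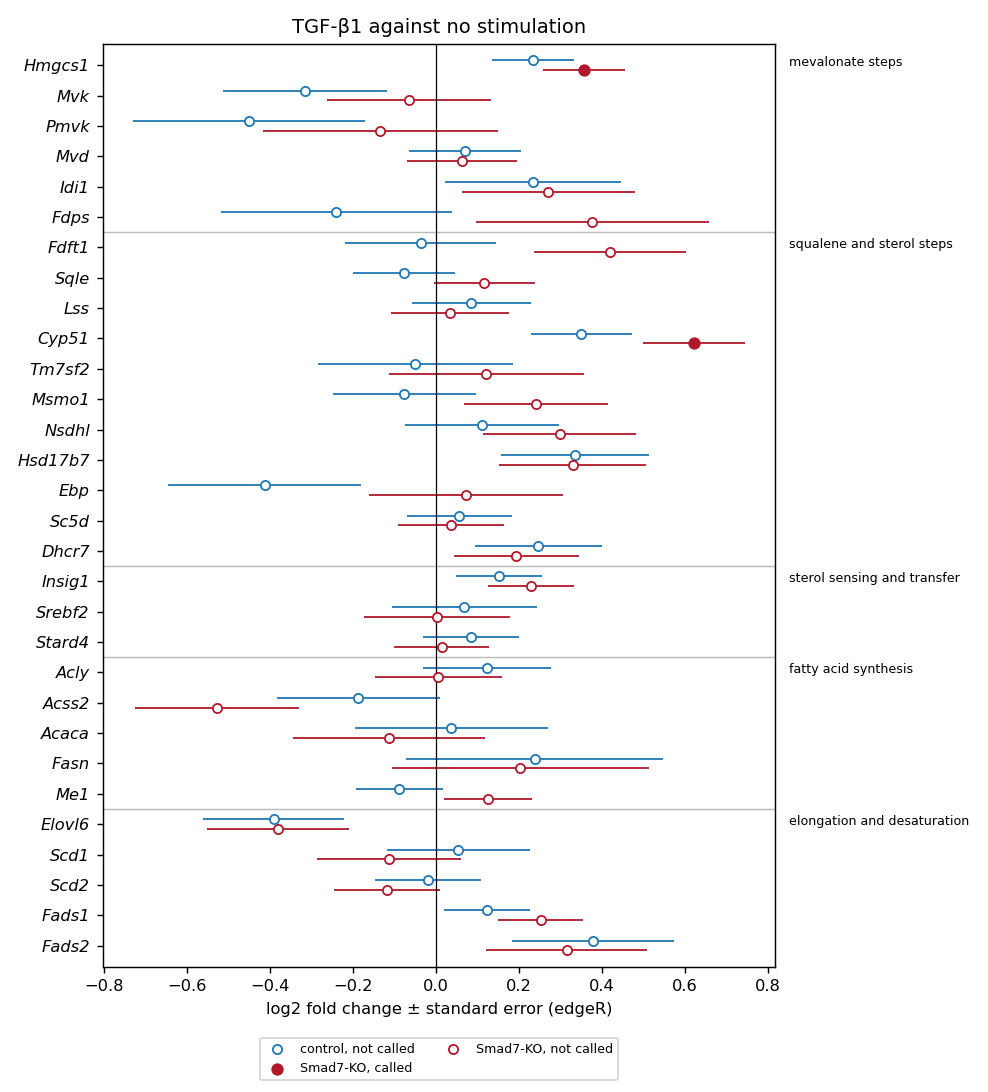
Log2 fold change ± standard error of the 30 members with TGF-β1 against no stimulation (horizontal axis), in control (blue) and Smad7-KO cells (red), grouped by role, with filled points where the adjusted p was 0.05 or less. Cyp51 and Hmgcs1 in Smad7-KO cells are the filled points, and the squalene and sterol enzymes of Smad7-KO cells all lie to the right of 0.

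Groups did not overlap for 4 members in control cells (3 higher, 1 lower; 19.8% of all genes) and for 12 in Smad7-KO cells (10 higher, 2 lower; 39% of all genes). The median log2 fold change of the members was 0.06 in control and 0.12 in Smad7-KO cells, against -0.03 and -0.01 over all genes. At an unadjusted p under 0.05 there were 3 members in control cells (Cyp51, Hmgcs1 and Elovl6) and 7 in Smad7-KO cells. DESeq2 also called 0 members in control cells, on all libraries or on those compared. Without unstimulated control library 3, 4 members were called in control cells, where 22.3% of all genes were, with Idi1 (0.53) and Hsd17b7 (0.59) higher and Mvk (-0.51) and Ebp (-0.67) lower. With the length trend removed, Elovl6 was called lower in control cells (-0.50, adjusted p = 0.0379 by edgeR), and Cyp51, Hmgcs1, Hsd17b7 and Fads1 were called higher in Smad7-KO cells. In fits of only the 6 Smad7-KO libraries, edgeR called 11 members (10 higher and Acss2 lower) and DESeq2 10, where 26.3% and 14.8% of all genes were called. Those shares are over 14401 and 23099 genes, with 3792 and 3419 genes called.

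The test of whether the effect of Smad7 loss differed with TGF-β1 (the interaction) called 0 of the 30 members by edgeR, against 0.0198% of all genes, and 0 had an unadjusted p under 0.05. DESeq2 on all libraries also called 0. The estimates with the largest size were those of Fdps (0.62, 95% interval -0.16 to 1.39), Ebp (0.48, -0.16 to 1.13) and Fdft1 (0.46, -0.050 to 0.96), and the lowest adjusted p was 0.98. Fdps measured 42.4, 73.5 and 54.9 CPM in TGF-β1 control and 54.5, 45.8 and 55.1 in TGF-β1 Smad7-KO libraries, which overlapped, and the unstimulated values of both genotypes are given above. For Stard4 and Acly, called in unstimulated cells only, the interaction was -0.071 (-0.39 to 0.25) and -0.12 (-0.54 to 0.31).

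Other genes of the same pathways were counted from lists chosen by function. Their calls stand beside 12.1% of all genes higher and 13.7% lower in Smad7-KO cells without TGF-β1, and 5.72% and 7.23% with it. For TGF-β1 against no stimulation, the shares were 5.04% higher and 3.33% lower in control cells, and 5.33% and 4.9% in Smad7-KO cells. Of 5 genes that process SREBPs, Mbtps2, a protease that cuts them free, rose in unstimulated Smad7-KO cells (0.60; from 30.8 ± 6.35 CPM in control to 46.7 ± 2.67), and none was called in the other comparisons. Srebf1, which encodes SREBP-1, measured 96.5 ± 5.46 CPM in control, 105 ± 8.42 in TGF-β1 control, 91.5 ± 3.16 in Smad7-KO cells and, after TGF-β1, 91.0 ± 3.52 in these cells. Among 11 genes that use isoprenoids, Coq2, which prenylates the ubiquinone ring, fell in both (-0.66 and -0.54), and Rce1, a protease of prenylated proteins, fell without TGF-β1 (-0.66).

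Of 16 other genes of elongation and desaturation, 12 had enough counts to be tested. Fads3 fell in Smad7-KO cells without and with TGF-β1 (-0.42 and -0.46), and so did the elongase Elovl7 in both. Elovl7 measured 1.08 ± 0.213 CPM in control, 1.016 ± 0.218 in TGF-β1 control and 0.500 ± 0.134 in Smad7-KO cells, at 28 counts or fewer in any library, and had 3 counts or fewer in each TGF-β1 Smad7-KO library, so no fold is given. The dehydratase Hacd4 rose in unstimulated Smad7-KO cells (0.84). TGF-β1 raised the dehydratase Hacd2 in control (0.53) and Smad7-KO cells (0.61) and raised the elongase Elovl1 (0.37) in Smad7-KO cells, where Elovl7 was called lower. Of 5 genes that supply NADPH, G6pdx, glucose-6-phosphate dehydrogenase, rose in unstimulated Smad7-KO cells (0.39) and was lowered by TGF-β1 in those cells (-0.36). In these lists the values given with a direction are log2 fold changes with an adjusted p of 0.05 or less by edgeR. None of the genes in these lists was called in the interaction. Over all lists of other pathway genes, 40 calls were made, of which 9 were kept in every alternative run and 31 were lost in at least 1. Among the calls lost most often were those of Elovl7 and Rce1 in unstimulated Smad7-KO cells (lost in 15 of 20 and 13 of 21 alternatives). The calls of Elovl1 and G6pdx for TGF-β1 in Smad7-KO cells were each lost in 12 of 21. The Coq2 call in Smad7-KO against control cells with TGF-β1 was lost in 11 of 21.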

How the data were processed

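Gene expression was measured by RNA-seq of polyadenylated RNA in 12 libraries of mouse cardiac fibroblasts. The authors deposited raw read counts per gene together with FPKM values, and a recomputation from counts, lengths and totals returned the same FPKM values. Submitters' processing notes name CASAVA, TopHat2 2.0, Cufflinks 2.1.1 and HTSeq 0.6.1, and the builds mm10 and GRCm38.p6. Which tool made the counts and whether strand was used are not given in the sources used here.

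Counts of all 12 libraries were fitted in edgeR 4.0.16 (R 4.3.3) with TMM scaling, filterByExpr at a minimum count of 10, robust quasi-likelihood tests and 5 contrasts. P values were adjusted by Benjamini-Hochberg over 15150 genes, at a threshold of 0.05. The study's own tool, DESeq2, was used as an alternative (1.42.0, on all libraries and on those compared), as were limma 3.58.1 on log2(FPKM + 1) for genes at FPKM 1 or more in at least 3 libraries, DESeq2 size factors, no filter, the replicate number as a block, removal of each library's loess trend on log gene length (span 0.3), and omission of each library. With 3 libraries against 3, an exact permutation test cannot go below p = 0.1, so none was used.

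Per-library values are printed for members called in any comparison and for the 3 members with the largest absolute log2 fold change in each, and others were named after their values were seen. The members and gene lists were chosen with earlier results of these data known. List genes renamed since the table was made (the Hacd genes and Adgre1) were matched by identifier. The results of 1 such list are not reported here, although its calls are in the count over all lists. CPM values are TMM-scaled and depend on depths of 19056916 to 25371321 counts. Replicate libraries of a group differed by more than counting noise, so none was treated as a duplicate. On simulated counts for Smad7-KO against control without TGF-β1, the edgeR steps recovered 48% of 2-fold and 89% of 4-fold changes over 14911 genes. Of the calls, 2.14% were false, but no length trend was planted, unlike in these libraries. DESeq2 and limma had 16.5% and 8.09% of calls false on such counts. With a trend planted in 1 library, edgeR had 3.31% of calls false, and log2 fold change correlated with log2 length at 0.373. These simulations changed few genes, by 2-fold or 4-fold, whereas 25.8% of all genes were called in the real comparison. The largest change of a member there was 0.571-fold (Me1), so the simulated rates may not hold for the members.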

Additional observations from a re-analysis of the deposited data

How the results depend on the processing

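No call of the fit reported reversed its direction in an alternative run. Acaca, not called in that fit, was called higher without unstimulated control library 3 (0.55) and lower with the length trend removed (-0.30) in Smad7-KO cells without TGF-β1. Without TGF-β1, the number of members called in Smad7-KO cells, 5 in the fit reported, was 1 in DESeq2 or edgeR fits of the libraries compared, 2 without the filter on low counts, 10 with the length trend removed and 11 with that trend removed and a replicate block, and 1 to 15 when 1 library was left out. With TGF-β1 the count of 3 became 5 with DESeq2 on all libraries, 8 with DESeq2 or edgeR on the libraries compared, 10 with the length trend removed with or without the block, and 2 to 7 when 1 library was left out. For TGF-β1 in control cells the count of 0 became 1 with the length trend removed and 0 to 4 when 1 library was left out. In Smad7-KO cells the count of 2 became 10 with DESeq2 and 11 with edgeR on the libraries compared, 1 without the filter, with limma or with the block, 4 with the length trend removed, and 1 to 4 when 1 library was left out. The interaction called 0 members in each alternative run. Leaving out libraries outside a comparison was added after the data were seen. The share of all genes called moved as well, from 4.54% to 51.5% for Smad7-KO without TGF-β1 (25.8% in the fit reported), 5.7% to 30.8% with TGF-β1 (13%), 2.69% to 22.3% for TGF-β1 in control cells (8.37%) and 4.89% to 26.3% in Smad7-KO cells (10.2%). Each share is over the genes tested in its run, for example 12490 with limma and 25841 without the filter on low counts. The causes of these shifts were not tested.

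Whether replicate numbers pair the libraries could not be settled, because each condition had 3 libraries and their deviations also followed gene length. Deviations of same-numbered libraries correlated at -0.045 to 0.0835, -0.205 to 0.0635, 0.0124 to 0.524 and -0.0171 to 0.0541 in the 4 comparisons in the order above, and 3, 1, 3 and 3 of 6 libraries correlated best with their own number. With the replicate block the counts were 6, 2, 0, 1 and 0, the last for the interaction. The block ended the calls of Dhcr7 in Smad7-KO cells with TGF-β1 and of Hmgcs1 with TGF-β1 in Smad7-KO cells, as did limma. The median log2 fold change of the members without TGF-β1 moved from 0.07 to -0.04 with the length trend removed.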

Other observations

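Of the 9 genes of sterol export and oxysterol response, 4 rose in Smad7-KO cells without TGF-β1, where 12.1% of all genes tested rose. They were the sterol transporters Abca1 (log2 fold change 1.05) and Abcg1 (0.84), Soat1, which esterifies cholesterol (0.84), and Cyp27a1, which makes 27-hydroxycholesterol (0.36). Abca1 (0.93) and Soat1 (0.80) also rose with TGF-β1, where 5.72% of all genes did. The Abca1 call with TGF-β1 was lost in 12 of 21 alternatives, with log2 fold changes of 0.59 to 1.12, and its value without TGF-β1 ranged from 0.52 to 1.47. The Cyp27a1 call was lost in 11 of 21. Soat1 measured 170.1 ± 5.80 CPM (SD, n = 3) in control cells against 304 ± 11.1 after Smad7 loss, and 155 ± 16.2 and 270.3 ± 16.5 with TGF-β1, and its call was lost with the length trend removed (edgeR adjusted p = 0.258 and 0.0584). Abca1 measured 296 ± 128 CPM in control and 615 ± 31.0 in Smad7-KO cells. These genes are expressed in macrophages too, of whose 10 markers 6 rose in Smad7-KO cells without TGF-β1 and 5 with it, and the part of such cells was not tested. TGF-β1 lowered Cyp27a1 (-0.95 in control and -0.98 in Smad7-KO cells), a call kept in every alternative run, and raised Mylip, a ubiquitin ligase for lipoprotein receptors (0.55 and 0.46), and Lpcat3, a phospholipid acyltransferase, in Smad7-KO cells (0.34). In Smad7-KO cells the Mylip call was lost in 13 of 21 alternatives and the Lpcat3 call in 11. Of the 9 genes, TGF-β1 raised 1 and lowered 1 in control cells, where 5.04% of all genes rose and 3.33% fell. It raised 2 and lowered 1 in Smad7-KO cells, where 5.33% rose and 4.9% fell.

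Of 12 genes of fatty acid oxidation and PPAR response, the lipid droplet coat gene Plin2 rose in Smad7-KO cells without and with TGF-β1 (0.59 and 0.47), while Cpt1c, a carnitine palmitoyltransferase (-0.64 and -0.57), and Pdk4, a kinase that inhibits pyruvate dehydrogenase (-0.66 and -0.81), fell in both. The Plin2 call with TGF-β1 was lost in 12 of 21 alternatives. Angptl4, an inhibitor of lipoprotein lipase, rose in unstimulated Smad7-KO cells (0.78) and fell with TGF-β1 in Smad7-KO cells (-0.70). Pdk4 measured 19.6 ± 3.07 CPM in control, 16.1 ± 2.72 in TGF-β1 control, 12.4 ± 1.15 in Smad7-KO cells and, after TGF-β1, 9.20 ± 0.0816 in these cells. Of 7 genes of glycerolipid synthesis, the phosphatidate phosphatase Lpin2 rose in unstimulated Smad7-KO cells (0.84). TGF-β1 raised Lpin3 in control cells (0.93) and lowered Lpin1 (-0.99) and Dgat2, which completes triglyceride synthesis (-0.89), in Smad7-KO cells. All of these passed edgeR's quasi-likelihood test, and 0 genes of these lists were called in the interaction. In Smad7-KO against control cells, 2 of the 12 oxidation genes rose and 2 fell without TGF-β1, and 1 rose and 2 fell with it. Over all genes tested, 12.1% rose and 13.7% fell without TGF-β1, and 5.72% and 7.23% with it. Of the 7 glycerolipid genes, 1 rose without TGF-β1 and none was called with it. For TGF-β1 against no stimulation, 5.04% of all genes rose and 3.33% fell in control cells, and 5.33% and 4.9% in Smad7-KO cells.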
